A study of Mus musculus with 14 samples.

Results

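Lysozyme and macrophage genes were followed across embryonic stem cells of the mouse (ESC), which are pluripotent and divide without specialising, and embryoid bodies (EB), the clumps in which they specialise. The 10 genes were Lyz1, Lyz2, Csf1r, Tyrobp, Fcer1g, Ptprc, Cd68, Ctss, C1qa and C1qb, represented by 17 of the 45101 probe sets and by 10 of the 18194 genes on the array. They were chosen by gene symbol with earlier results of these data in view: Lyz1 was among the largest increases between WT EB and WT ESC. The values of WT EB against WT ESC are therefore given as a description, with no test. The 4 groups were TKO EB (5 arrays, lines 2-55-2, 14-14-4, 7-4-1, Dutch and Ta1-12), WT EB (3 arrays, lines B21, J1 and R1), TKO ESC (3 arrays, lines 7-4-1, Dutch and Ta1-12) and WT ESC (3 arrays, the same lines as WT EB). WT stands for wild type. TKO is not spelled out in the labels and was read as loss of all of Rb1, Rbl1 and Rbl2, the pocket protein genes, because the series title names the Rb gene family. The strain of each line, the alleles and the length of EB culture are not given in the labels.

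Macrophages are phagocytes that engulf dead cells and microbes and digest them in lysosomes. In the embryo the earliest macrophages arise from the yolk sac, and cultures of embryoid bodies can form blood cells of this kind. Growth and survival of macrophages depend on the receptor Csf1r, while the adaptors Tyrobp and Fcer1g pass signals from surface receptors to the kinase Syk through motifs known as ITAMs. Lysozyme cuts the cell wall of bacteria. In the mouse Lyz2 is the lysozyme of myeloid cells and Lyz1 that of Paneth cells of the gut, and their sequences are close to each other.

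Values are linear intensities of Affymetrix probe sets. Array medians lay between 83.2 and 107.9. Values under 32 were raised to 32 before log2 was taken, so a log2 difference against a group below that floor is understated. Among the targeted genes, Rbl1 was at 31.7, 15.9 and 38.3 in TKO EB of lines 2-55-2, 14-14-4 and 7-4-1, at 377.1 in Dutch and at 1095.9 in the array labelled TKO Ta1-12, against 493.0 to 1089.6 in WT EB. In TKO ESC it was at 24.5 in 7-4-1, 250.3 in Dutch and 492.5 in Ta1-12, against 355.6 to 693.8 in WT ESC. A second Rbl1 probe set was at 12.7 to 28.1 in TKO EB of the first 3 lines, 135.5 in Dutch and 194.2 in Ta1-12, where WT EB had 114.0 to 174.2. It was at 36.6, 88.2 and 328.2 in TKO ESC of 7-4-1, Dutch and Ta1-12, against 296.7 to 413.0 in WT ESC. Rbl1 signal in both arrays labelled TKO Ta1-12 thus went against their label, and the Dutch arrays had part of it, up to the WT EB range in the second probe set. Rb1 did not separate the genotypes: it was at 300.5 to 912.8 in TKO EB and 407.1 to 1018.4 in WT EB, and at 115.9 to 607.1 in TKO ESC and 138.0 to 790.6 in WT ESC. Rbl2 was at 296.8 to 1098.7 in TKO EB and 722.8 to 1726.9 in WT EB in its brighter probe set, and at 658.5 to 843.2 in TKO ESC and 411.1 to 661.3 in WT ESC. Its other probe set was at 94.3 to 253.2 in TKO EB and 255.1 to 440.9 in WT EB, without overlap. In ESC that probe set was at 171.1 to 229.1 in TKO and 122.5 to 175.6 in WT. Where the probes lie within the targeted genes is not stated, so these values do not settle the labels. The calls in TKO EB against TKO ESC are given with and without the line labelled Ta1-12, and those of the members also without the TKO EB Dutch array. RNA came from whole cultures, where fewer cells of a type and less RNA per cell cannot be told apart. The labels name the lines but not separate cultures of a line, so p-values rest on the spread between lines, pooled over the 4 groups. For members at the floor on every ESC array that spread was 0 in both ESC groups, which pulls the pooled SE down. The main fit also takes the ESC and EB arrays of a line as independent, and a fit with line as a block is given beside it.

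The sequences ahead of the gene starts are shown for the 4 members whose window held a 7-base motif, AGGAAGT or its reverse complement ACTTCCT, which contains the core bound by ETS factors such as PU.1, the product of Spi1 and a regulator of macrophage genes. The motif was searched on both strands after the windows had been read, so its share among the members is a description and not a test. Lyz1 and Lyz2, alike in sequence, are not separate finds. Of the 10 members, 7 had a window of 250 bases before the start in RefSeq (GRCm38.p6), and 4 of these 7 held the motif, against 8.8% of 27025 genes and 7.7% of 32851 windows. The Ptprc window held 2 matches, of which the one shown is on the strand of the gene. The sequences of Lyz1 and Lyz2 are given whole because these neighbours on chromosome 10 could be set against each other, and those of C1qb and Ptprc only around the motif. Capitals mark the motif, and every sequence runs 5′ to 3′ on the strand of the gene.
Lyz1 (chr10:117292869-117293118, minus strand): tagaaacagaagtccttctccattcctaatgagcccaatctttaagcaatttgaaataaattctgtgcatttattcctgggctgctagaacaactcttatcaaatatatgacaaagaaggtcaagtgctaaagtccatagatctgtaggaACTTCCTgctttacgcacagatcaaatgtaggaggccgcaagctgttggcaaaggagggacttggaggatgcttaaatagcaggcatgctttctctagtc
Lyz2 (chr10:117282273-117282522, minus strand): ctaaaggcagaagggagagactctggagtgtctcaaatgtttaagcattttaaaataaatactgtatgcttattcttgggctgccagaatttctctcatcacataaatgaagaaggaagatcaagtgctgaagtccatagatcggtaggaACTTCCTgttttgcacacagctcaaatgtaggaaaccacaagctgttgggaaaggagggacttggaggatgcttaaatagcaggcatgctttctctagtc
C1qb (chr4:136886220-136886280, minus strand): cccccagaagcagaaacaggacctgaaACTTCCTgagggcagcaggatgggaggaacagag
Ptprc (chr1:138175385-138175445, minus strand): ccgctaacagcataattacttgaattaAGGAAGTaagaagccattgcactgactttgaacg
The Lyz1 and Lyz2 windows were identical at 205 of 260 aligned columns (78.8%) and at 59 of the last 60 bases before the start. In both, the first base of the motif lay at position -100 relative to the start, and it lay at -53 in C1qb and -113 in Ptprc. Fcer1g, Ctss and Cd68 had a window without these letters. A match describes letters in a window and not a bound site.

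Lyz1 and Lyz2 RNA was abundant in every WT EB, spread over a wide range in TKO EB and lay under the floor in every ESC array. The probe set that stood for Lyz1, the one with the highest mean, read 2192.6 in TKO EB of line 2-55-2, 3573.2 in 14-14-4, 774.6 in 7-4-1, 29.2 in Dutch and 6858.0 in Ta1-12. It read 14667.4 in WT EB of line B21, 11671.9 in J1 and 8219.4 in R1. All 5 TKO EB lay below all 3 WT EB, and the Dutch array was no higher than the floor. On the 6 ESC arrays this probe set lay between 4.7 and 20.2. A second Lyz1 probe set gave the same order, from 17.3 in TKO EB Dutch to 5761.3 in TKO EB Ta1-12 and from 7091.8 to 12312.2 in WT EB. The third stayed between 4.0 and 35.3 on all arrays. The 2 Lyz1 probe sets with signal are of a kind that can match near-identical sequences, so Lyz1 and Lyz2 RNA cannot be told apart with certainty.

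Lyz2 read 975.9 in TKO EB of line 2-55-2, 1596.6 in 14-14-4, 354.3 in 7-4-1, 21.6 in Dutch and 3383.6 in Ta1-12. It read 9340.9, 7161.2 and 4504.6 in WT EB of B21, J1 and R1, and 2.4 to 27.2 in ESC. The lines ran in the same order as for Lyz1, again without overlap between TKO EB and WT EB. Of the 10 members 7 (Lyz1, Lyz2, Fcer1g, Ptprc, Ctss, C1qa and C1qb) passed the filter on low values through EB arrays alone, on 0 of 6 ESC arrays, so their p-values in TKO EB against TKO ESC are read as a description. Against TKO ESC, Lyz1 rose in TKO EB by 5.05 ± 1.26 on the log2 scale (SE, n = 5 and 3, limma adjusted p = 0.00826) and Lyz2 by 4.15 ± 1.08 (adjusted p = 0.0104). Against WT EB, the log2 difference in TKO EB was -3.40 ± 1.26 for Lyz1 (n = 5 and 3, limma adjusted p = 0.312) and -3.56 ± 1.08 for Lyz2 (adjusted p = 0.304), and neither passed the threshold of 0.05. Without the line labelled Ta1-12 this difference was -4.08 for Lyz1 (limma adjusted p = 0.0717) and -4.20 for Lyz2 (adjusted p = 0.0351), which then passed, as did 1084 genes. The members were chosen on a rise in these same WT EB arrays, so the p-values against WT EB are read as a description.

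**Figure D1:**
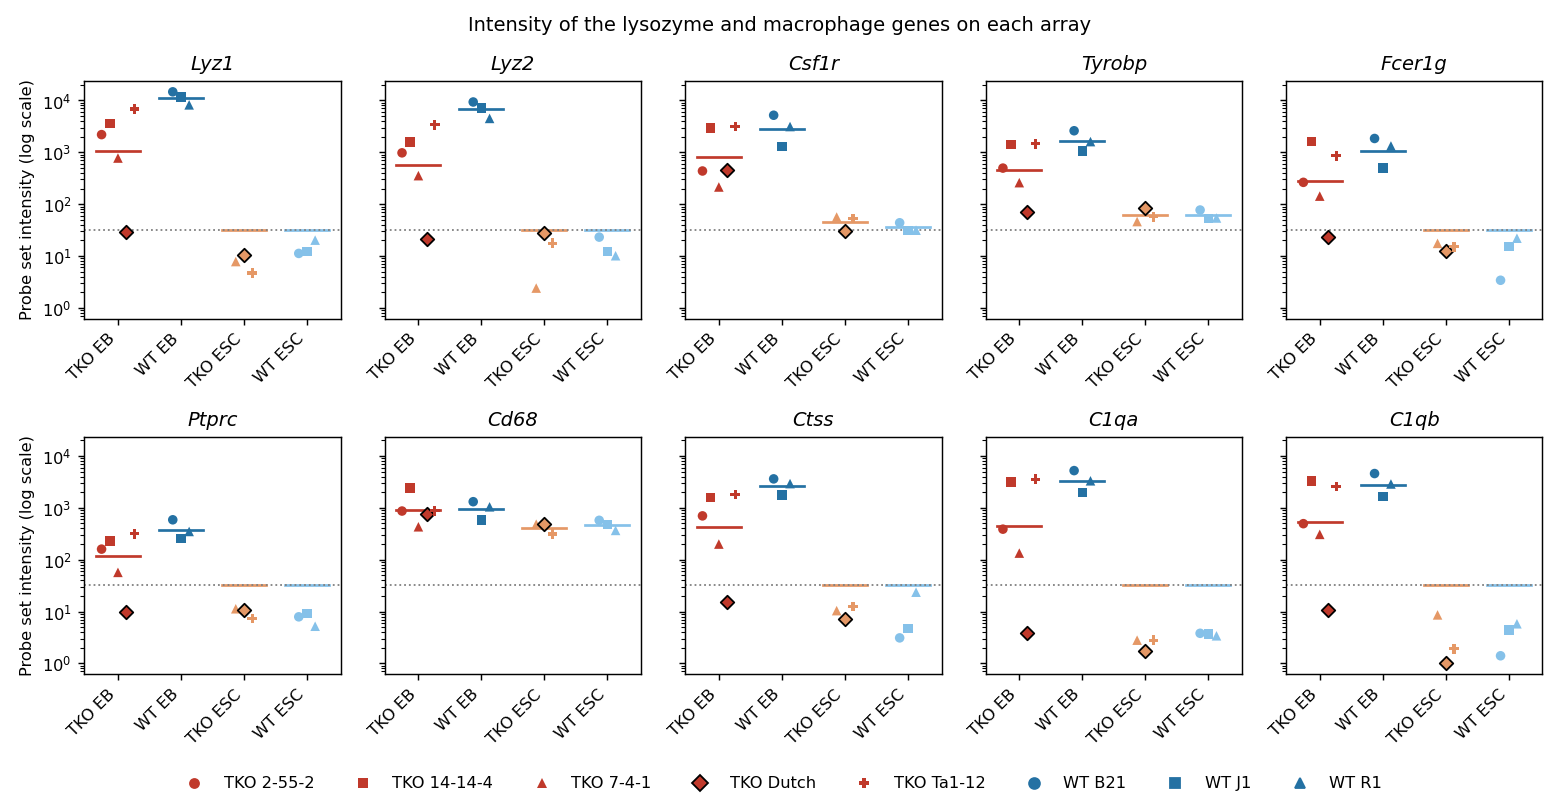
Intensity (log axis) of the probe set that stands for each of the 10 genes, with 1 point per array, a marker per line and a short horizontal line at the group mean of the floored log2 values. The dotted line is the floor of 32, values under 1 are drawn at 1, and the point outlined in black is line Dutch. In Lyz1 and Lyz2 all TKO EB points lie under all WT EB points, while in the other genes the 2 groups overlap.

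Csf1r, the receptor for the growth factors CSF1 and IL-34, was the one member that lay both above the floor and above every ESC array in all 8 EB. It read 435.7 in TKO EB of line 2-55-2, 2945.9 in 14-14-4, 214.1 in 7-4-1, 452.2 in Dutch and 3118.5 in Ta1-12, against 5185.5, 1289.6 and 3137.9 in WT EB of B21, J1 and R1. On ESC arrays it lay between 30.8 and 56.4. The other 2 Csf1r probe sets had a lower signal and put the lines in the same order in TKO EB, with 7-4-1 lowest (94.4 and 172.3) and Ta1-12 highest (978.3 and 569.2). Csf1r rose in TKO EB against TKO ESC by 4.18 ± 0.80 (log2, SE, n = 5 and 3, limma adjusted p = 0.00202), which was the smallest of the 10 adjusted p-values. Its log2 difference in TKO EB against WT EB was -1.74 ± 0.80 (n = 5 and 3, limma adjusted p = 0.354), and the groups overlapped. Of its ligands, Csf1 lay between 322.0 and 468.5 in TKO EB and between 422.5 and 484.6 in WT EB, against 268.0 to 369.5 in ESC. Il34 lay between 46.1 and 96.3 on all 14 arrays.

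Tyrobp, the adaptor also known as DAP12, read 495.5 in TKO EB of line 2-55-2, 1417.3 in 14-14-4, 259.6 in 7-4-1, 71.0 in Dutch and 1455.5 in Ta1-12. It read 2603.4, 1058.8 and 1607.2 in WT EB of B21, J1 and R1, and 46.1 to 84.7 in ESC. The Dutch array lay within the ESC range, and lines 14-14-4 and Ta1-12 lay within the WT EB range. Fcer1g, the gamma chain shared by Fc receptors, read 263.2, 1613.6, 142.7, 23.3 and 853.2 in TKO EB of 2-55-2, 14-14-4, 7-4-1, Dutch and Ta1-12. It read 1847.4, 501.9 and 1324.7 in WT EB of B21, J1 and R1, and no more than 22.0 in ESC. Here line 14-14-4 was above WT EB J1 and R1. Both adaptors rose in TKO EB against TKO ESC, Tyrobp by 2.90 ± 0.80 (log2, SE, n = 5 and 3, limma adjusted p = 0.0135) and Fcer1g by 3.12 ± 0.96 (adjusted p = 0.0233). Against WT EB the differences in TKO EB were -1.86 ± 0.80 (n = 5 and 3, limma adjusted p = 0.334) and -1.95 ± 0.96 (adjusted p = 0.374).

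Ptprc, the phosphatase CD45 carried by nearly all white blood cells, had the weakest EB signal of the 10 probe sets that stood for a gene. It read 159.8 in TKO EB of line 2-55-2, 227.5 in 14-14-4, 56.9 in 7-4-1, 9.6 in Dutch and 315.1 in Ta1-12, against 588.1, 254.9 and 350.2 in WT EB of B21, J1 and R1. In ESC it stayed at or under 11.3. Its second probe set stayed at or under 24.8 on all arrays. Ptprc rose in TKO EB against TKO ESC by 1.86 ± 0.61 (log2, SE, n = 5 and 3, limma adjusted p = 0.0313) and differed from WT EB by -1.69 ± 0.61 (adjusted p = 0.309).

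The lysosomal members behaved differently from each other. Ctss, a cathepsin that cuts the invariant chain in antigen presentation, read 699.9, 1596.0, 200.03, 15.6 and 1806.4 in TKO EB of 2-55-2, 14-14-4, 7-4-1, Dutch and Ta1-12. It read 3620.6, 1772.7 and 2933.9 in WT EB of B21, J1 and R1, and no more than 23.6 in ESC. Ctss followed the lysozymes in having Dutch under the floor, and only Ta1-12 reached into the WT EB range. Cd68, a glycoprotein of late endosomes and lysosomes, read 867.7, 2441.2, 431.1, 759.6 and 877.2 in the same TKO EB and 1313.7, 583.4 and 1046.2 in the same WT EB. It was present in ESC as well, at 312.8 to 483.6 in TKO ESC and 366.9 to 574.6 in WT ESC. Ctss rose in TKO EB against TKO ESC by 3.71 ± 1.01 (log2, SE, n = 5 and 3, limma adjusted p = 0.0131), whereas Cd68 was higher by 1.12 ± 0.45 and did not pass (adjusted p = 0.0682). Against WT EB, Ctss differed in TKO EB by -2.67 ± 1.01 (n = 5 and 3, limma adjusted p = 0.316). For Cd68 this difference was -0.04 ± 0.45, with a 95% interval of -1.01 to 0.93 (limma adjusted p = 0.977).

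C1qa and C1qb, chains of the complement component C1q that macrophages secrete, varied most among TKO EB next to Lyz1, with an SD of the log2 values of 2.94 and 2.71 against 3.05 for Lyz1. C1qa read 387.9 in TKO EB of line 2-55-2, 3140.5 in 14-14-4, 133.9 in 7-4-1, 3.8 in Dutch and 3582.9 in Ta1-12, against 5226.8, 1976.6 and 3323.4 in WT EB of B21, J1 and R1. C1qb read 495.1, 3333.4, 307.7, 10.8 and 2580.4 in the same TKO EB and 4587.9, 1639.5 and 2884.6 in the same WT EB. Lines 14-14-4 and Ta1-12 were inside the WT EB range for both chains, 2-55-2 and 7-4-1 were below it, and Dutch lay under the floor, as did the ESC arrays, which stayed at or under 8.6 for both genes. The other 2 C1qb probe sets gave 258.1 and 128.4 in 7-4-1 and 19.3 and 11.3 in Dutch. C1qa rose in TKO EB against TKO ESC by 3.82 ± 1.22 (log2, SE, n = 5 and 3, limma adjusted p = 0.0281) and C1qb by 4.05 ± 1.13 (adjusted p = 0.0149). Against WT EB the differences in TKO EB were -2.85 ± 1.22 (n = 5 and 3, limma adjusted p = 0.335) and -2.39 ± 1.13 (adjusted p = 0.360).

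Across the members, 9 of 10 were called higher in TKO EB than in TKO ESC, against 21% of the 14360 genes tested, and 0 of 10 lower, against 15%. The median log2 difference was 3.76 for the members and 0.09 for all genes tested. All 10 passed the filter on low values, 7 of them through EB arrays alone, so that these had to be higher there, and the count is a description. On the floored scale the arrays of the 2 groups did not overlap for 1 of 10 members, Csf1r, against 35.9% of genes. In 8 of the other members the Dutch array lay at the floor or within the ESC range. Lines 7-4-1, Dutch and Ta1-12 were measured at both stages, and with cell line as a block on the 12 paired arrays the call remained for 1 of 10 members, Csf1r (3.88, limma adjusted p = 0.0167), while Lyz1 was at 4.11 (adjusted p = 0.0562). Of all genes, 3236 passed either way with the block and 4096 on the same 12 arrays without it, against 5166 in the main fit. Without the block 2 members were called. Without the line labelled Ta1-12 the count was also 2, against 13.4% of 14191 genes, with Csf1r at 3.80 (limma adjusted p = 0.0128) and Lyz1 at 4.37 (adjusted p = 0.0477). The calls of the other 7 were then lost, with adjusted p-values by limma of 0.0538 (Lyz2), 0.0688 (Ctss), 0.0738 (Tyrobp), 0.0765 (C1qb), 0.109 (Fcer1g), 0.113 (C1qa) and 0.126 (Ptprc). Without the TKO EB Dutch array the count was 9, with Lyz1 at 6.31 (limma adjusted p = 7.49e-06). Genes called either way rose there as well, to 6287 from 5166 in the main fit.

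Between TKO EB and WT EB, 0 of 10 members passed the adjusted threshold by limma, against 0% of the 14360 genes. At an unadjusted p under 0.05 there were 6 members (Lyz1, Lyz2, Tyrobp, Ptprc, Ctss and C1qa) and 2027 genes (14.1%). The arrays did not overlap for 2 of 10 members, Lyz1 and Lyz2, against 3.85% of genes. The Lyz1 probe sets with signal may also read Lyz2 RNA (r = 0.99 between the 2 genes over the EB arrays). These 2 may therefore not be separate finds. The median difference was -2.17 for the members and -0.10 for all genes tested. This comparison shares the WT EB arrays with the one on which the members were chosen. Without the line labelled Ta1-12, 1 member (Lyz2) and 1084 genes passed.

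**Figure D2:**
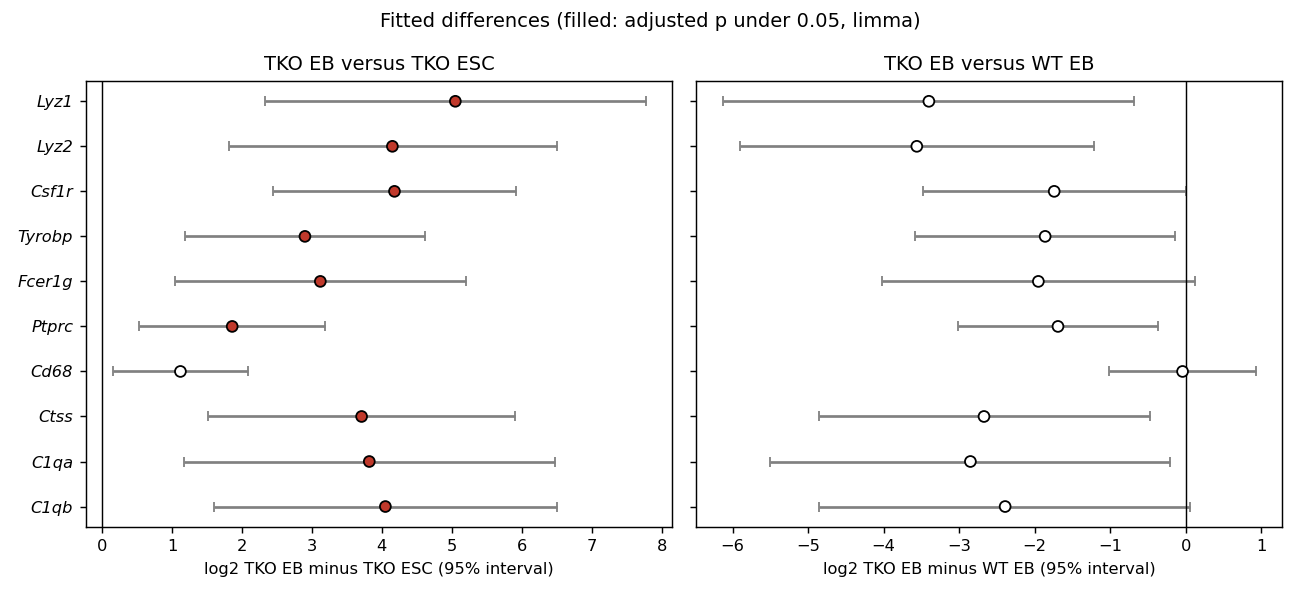
Log2 difference of each gene in TKO EB minus TKO ESC (left) and TKO EB minus WT EB (right) from limma over all 14 arrays, with 95% intervals. Filled points have an adjusted p under 0.05. On the left 9 of 10 points are filled and Cd68 is open, and on the right all are open and Cd68 lies at -0.04.

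Relative to the mean of WT EB, the lines of TKO EB differed by member. Line Ta1-12 lay within 1 log2 unit of the WT EB mean for all 10 genes, with -0.99 for Lyz2 and -0.71 for Lyz1 as its lowest values. In 14-14-4 the lysozymes were at -1.65 (Lyz1) and -2.07 (Lyz2), whereas C1qa was at -0.05, Csf1r at 0.09, C1qb at 0.26 and Fcer1g at 0.59. Line 2-55-2 lay at -2.35 for Lyz1 and -3.07 for C1qa, and 7-4-1 at -3.85 and -4.60. The Dutch array was at -8.45 for Lyz1 and -6.67 for C1qa, but at -2.61 for Csf1r and -0.29 for Cd68.

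**Figure D3:**
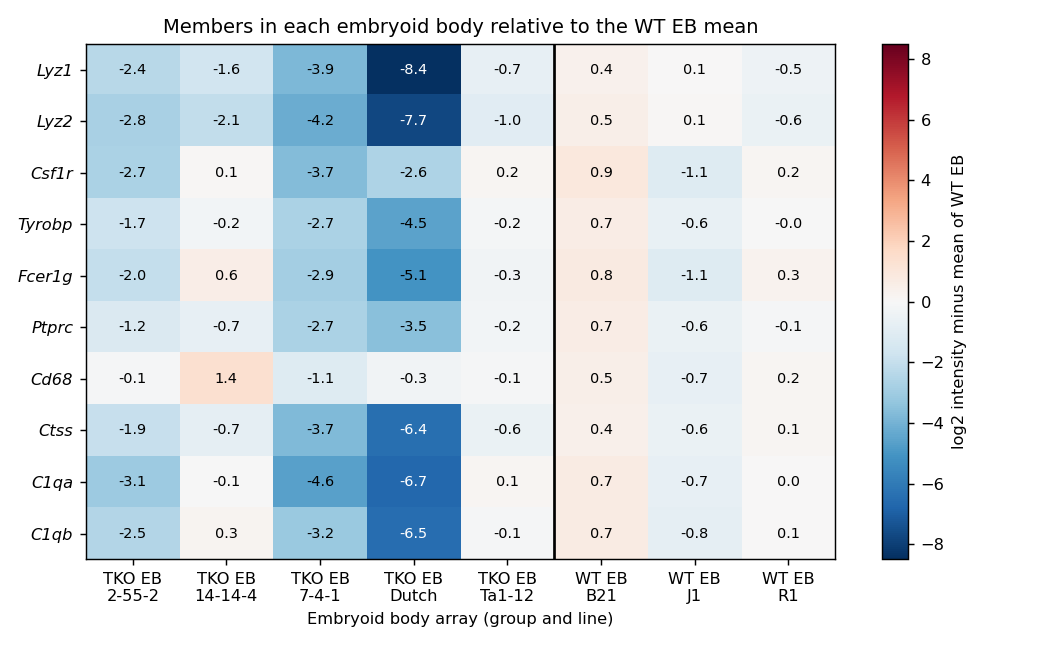
Log2 intensity of each gene (rows) in each EB array (columns) minus the mean of the 3 WT EB arrays, with TKO EB left of the black line and WT EB right of it. Blue is lower and red higher than the WT EB mean. Dutch is lowest in 8 of the 10 rows, and 14-14-4 is blue for the lysozymes but near 0 for C1qa, C1qb and Csf1r.

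In WT EB against WT ESC, described without a test, the log2 difference was 8.45 for Lyz1, 7.71 for Lyz2, 6.28 for Csf1r, 4.76 for Tyrobp, 5.06 for Fcer1g and 3.55 for Ptprc. It was 6.38 for Ctss, 6.67 for C1qa, 6.45 for C1qb and 1.00 for Cd68. The arrays did not overlap for 10 of 10 members, as for 60.5% of genes, and nothing is read from this count because the contrast chose the members. In TKO ESC against WT ESC, 0 of 10 members passed by limma (0% of genes; at an unadjusted p under 0.05, 0 members and 394 genes). Of the 10, 7 lay at the floor on all ESC arrays, so that no difference could be measured. Csf1r, Tyrobp and Cd68 differed in TKO ESC by 0.36 ± 0.90, 0.00 ± 0.89 and -0.16 ± 0.50 (log2, SE, n = 3 and 3). The change on differentiation was also compared between genotypes as an interaction, the difference in TKO minus that in WT. It passed for 0 of 10 members by limma (0% of genes; at an unadjusted p under 0.05, Lyz2 and 519 genes), with -3.40 ± 1.89 for Lyz1, -3.56 ± 1.63 for Lyz2 and 0.12 ± 0.67 for Cd68. For the 7 members at the floor in ESC this value equals TKO EB minus WT EB by construction, and both comparisons share the WT arrays on which the members were chosen.

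Other macrophage genes were read beside the members to check the label. Adgre1, Cx3cr1 and Itgam are from a list of 38 macrophage and monocyte genes. C1qc is from the complement list and Spi1 from that of myeloid transcription factors. C1qc, a chain of the same component as C1qa and C1qb, is not an independent marker. C1qc, the remaining C1q chain, was at 300.0, 2623.6, 176.8, 24.5 and 2166.3 in TKO EB of 2-55-2, 14-14-4, 7-4-1, Dutch and Ta1-12, and at 3482.1, 1225.3 and 2233.5 in WT EB of B21, J1 and R1. Adgre1, which encodes the macrophage antigen F4/80, was at 232.2, 1514.6, 189.2, 101.9 and 1448.8 in the same TKO EB and at 1376.6, 347.9 and 2602.4 in the same WT EB, against 82.4 to 115.5 in ESC. The chemokine receptor gene Cx3cr1 ran from 9.3 in Dutch to 431.2 in Ta1-12 and from 328.2 to 828.1 in WT EB. These markers followed the members, with Dutch at the level of ESC. Itgam, encoding CD11b, was weak, at 9.4 to 54.6 in TKO EB and 45.1 to 175.3 in WT EB. Spi1 was at 73.8 to 153.9 in TKO EB and 118.9 to 262.9 in WT EB, against 65.6 to 98.7 in ESC.

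Of the 38 macrophage and monocyte genes 34 were tested, and 13 rose and 0 fell in TKO EB against TKO ESC, beside 21% and 15% of all genes tested, with a median of 0.99. Genes such as Fcgr3, Cx3cr1 and Mpeg1 lay under the floor on every ESC array and could only rise. The counts and p-values of this list are therefore a description. The smallest adjusted p-values belonged to Lcp1, an actin bundling protein of white blood cells (3.59 ± 0.67, limma adjusted p = 0.00171), Tmem119 (3.63 ± 0.68, 0.00180), the chemokine gene Pf4 (4.70 ± 1.04, 0.00438), the Fc receptor gene Fcgr3 (3.70 ± 0.84, 0.00515) and Cd14, a receptor for bacterial lipopolysaccharide (3.40 ± 0.80, 0.00618). With cell line as a block the count was 4. Without the line labelled Ta1-12 it was these 5 of 33, a share near the 13.4% of all genes. In TKO EB against WT EB 0 of the 34 passed (0% of genes), with a median of -1.15, and 2 did not overlap, a share near the 3.85% of all genes. Counted per array, the genes more than 2-fold above the highest ESC array were 14, 21, 10, 2 and 20 of 38 in TKO EB of 2-55-2, 14-14-4, 7-4-1, Dutch and Ta1-12, and 30, 18 and 23 in WT EB of B21, J1 and R1. The members gave 9, 10, 8, 1 and 9 of 10 in the same TKO EB and 10, 9 and 9 in the same WT EB. Over all genes tested the share was 11.1%, 7.8%, 14.3%, 3.8% and 17.3% in TKO EB and 18.9%, 16.8% and 15.7% in WT EB.

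**Figure D4:**
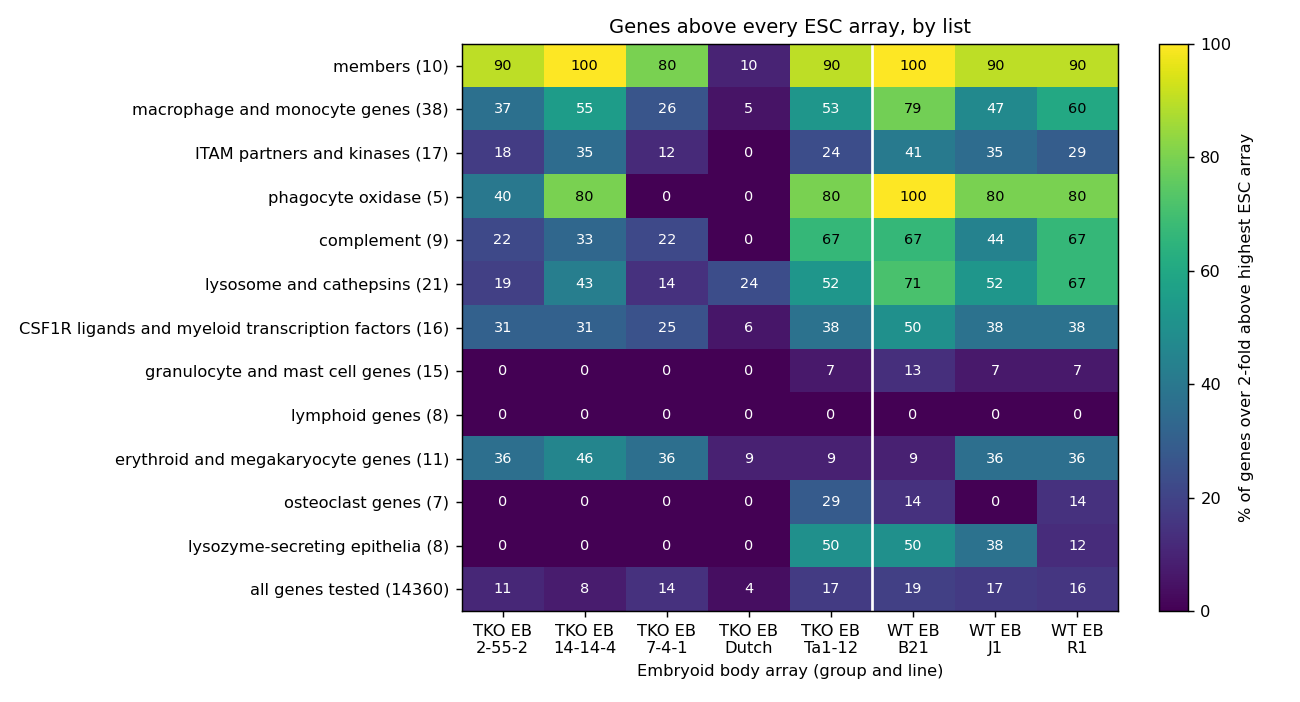
Percent of the genes of each list (rows, number of genes with a probe set in brackets) that lay more than 2-fold above the highest of the 6 ESC arrays, in each EB array (columns), with TKO EB left of the white line and WT EB right of it. Macrophage genes are between 26.3% and 78.9% in every EB except Dutch (5.3%), and lymphoid genes are at 0% throughout.

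Genes that act with the members were counted over whole lists, beside the 21% of all genes tested that rose and the 15% that fell in TKO EB against TKO ESC. Without the line labelled Ta1-12 these shares were 13.4% and 8.66%. Genes at the floor in TKO ESC, among them C3ar1, C1qc, Fli1 and Runx1, could only rise, so the counts of these lists are a description. Among partners and kinases of ITAM adaptors 15 of 19 were tested, and 3 rose and 4 fell, with a median of 0.19, and without the line 1 rose and 3 fell. The share that rose was near that of all genes, and with so few genes neither count is a result about the list. Sirpa, an inhibitory receptor of phagocytes, rose by 2.96 ± 0.35 (log2, SE, limma adjusted p = 1.18e-04). Syk, the kinase downstream of Tyrobp and Fcer1g, fell by 1.72 ± 0.39 (adjusted p = 0.00492), and Plcg2, a phospholipase that acts after Syk, fell by 2.45 ± 0.46 (adjusted p = 0.00175). Of 5 tested genes of the phagocyte oxidase, which makes superoxide, 1 passed, again near the share of all genes: Ncf1 rose by 1.47 ± 0.44 (adjusted p = 0.0200), and did not pass without the line (1.19, adjusted p = 0.0826). Of 9 tested complement genes other than C1qa and C1qb, C3ar1 (2.62 ± 0.61) and C1qc (3.63 ± 1.11) rose and properdin, Cfp, fell by 1.16 ± 0.23, shares near those of all genes. C1qc did not pass without the line (3.01, adjusted p = 0.102). Among myeloid transcription factors and Csf1r ligands 6 of 15 rose and 0 fell, and 5 of 15 rose without the line, led by Maf, which rose by 6.42 ± 0.50 (limma adjusted p = 8.10e-06) and read 973.2 even in TKO EB Dutch, against 14.2 to 36.1 in TKO ESC.

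Most lysosomal genes rose on differentiation of TKO cells. Of 21 tested, 15 rose and 0 fell in TKO EB against TKO ESC, beside 21% and 15% of all genes tested, with a median of 1.15. With cell line as a block 9 rose, and without the line labelled Ta1-12 10 of 20 rose, beside 13.4% of all genes. The protease gene Ctsb was at 8305.3, 10709.4, 7176.8, 7665.6 and 12053.2 in TKO EB of 2-55-2, 14-14-4, 7-4-1, Dutch and Ta1-12, and at 12976.4, 9209.0 and 12985.6 in WT EB of B21, J1 and R1, against 2801.4 to 3693.5 in ESC. Dutch lay within the range of the other TKO EB in this gene. Ctsb rose by 1.57 ± 0.17 (log2, SE, n = 5 and 3, limma adjusted p = 7.17e-05), and Lamp2, a lysosomal membrane protein, by 2.20 ± 0.24 (adjusted p = 7.34e-05).

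Markers of other cell types were set beside these. Of 15 granulocyte and mast cell genes 7 were tested and 0 passed by limma in TKO EB against TKO ESC, with or without the line labelled Ta1-12, beside 21% of all genes that rose and 15% that fell. Mpo, which defines granulocyte precursors, was at 58.6 to 109.1 in TKO EB and 61.5 to 66.0 in WT EB, against 84.0 to 132.1 in ESC, and the T cell gene Cd3e was at or under 33.8 on all arrays. Of 4 tested lymphoid genes 0 rose and 2, Cd79a and Cd79b, fell, with or without that line, too few to set against the shares of all genes. Summed lymphoid signal was 339 to 398 in TKO EB and 340 to 372 in WT EB, against 371 to 512 in ESC. Of 10 tested erythroid and megakaryocyte genes 2 rose, Ppbp (2.52 ± 0.48, limma adjusted p = 0.00198) and Gp1bb (1.00 ± 0.31, 0.0247), near the share of all genes. Of 5 tested osteoclast genes 2 rose, Nfatc1 (0.82 ± 0.19, 0.00638) and Mmp9 (2.02 ± 0.57, 0.0158), too few for a comparison. In both lists 0 fell, and without the line labelled Ta1-12 only Ppbp and Nfatc1 passed. Genes of epithelia that secrete lysozyme differed between arrays: their summed signal was 532, 449, 436, 417 and 2826 in TKO EB of 2-55-2, 14-14-4, 7-4-1, Dutch and Ta1-12, 3792, 799 and 570 in WT EB of B21, J1 and R1, and 265 to 440 in ESC. Of 5 tested genes of this list 0 passed by limma in TKO EB against TKO ESC. The arrays with the highest sums, WT EB B21 and TKO EB Ta1-12, were also the highest of their groups in Lyz1 and Lyz2. Lcn2 alone gave the largest part of these sums, with 2346.8 in B21 and 1566.9 in Ta1-12. Lines 2-55-2 and 14-14-4 read 2192.6 and 3573.2 for Lyz1, with epithelial sums of 532 and 449. The part of these cells in the lysozyme signal was not tested.

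The 8 genes outside the members whose log2 intensity was most like the members' mean over the 8 EB arrays were C1qc (Pearson r = 0.991), Cd14 (0.990), Cd53 (0.989), Col20a1 (0.989), Fcgr3 (0.988), F13a1 (0.988), Ms4a6b (0.988) and Coro1a (0.978). The arrays shared by these correlations differ in genotype, line and remaining undifferentiated signal. Over all 14 arrays r was 0.990 to 0.996 for C1qc, Cd14, Cd53, Fcgr3, F13a1 and Ms4a6b, 0.936 for Col20a1 and 0.435 for Coro1a, which read 157.7 to 527.7 in ESC. Among the members, r over the 8 EB arrays was 0.90 to 0.99 for every pair without Csf1r or Cd68, 0.69 to 0.89 for pairs of Csf1r and 0.28 to 0.70 for pairs of Cd68. The Dutch array lay at the floor or the ESC level in all members but Csf1r and Cd68. How much r rests on this array was not tested.

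Pou5f1, a transcription factor of pluripotent cells, was read as a marker of the state of each culture. It read 1542.2, 6132.8, 146.8, 7410.3 and 17.1 in TKO EB of 2-55-2, 14-14-4, 7-4-1, Dutch and Ta1-12, and 38.8, 32.8 and 55.2 in WT EB of B21, J1 and R1, against 9879.8 to 12950.1 in ESC. Dutch and 14-14-4 both kept a high Pou5f1 signal, with C1qa at 3.8 in Dutch and 3140.5 in 14-14-4. Other pluripotency genes set these 2 arrays further apart, with Nanog at 8416.6 in Dutch and 4332.8 in 14-14-4. The mean log2 signal of 6 pluripotency genes was 12.66 in Dutch, within the ESC range of 12.65 to 13.3, and 12.15 in 14-14-4, below it. Line 7-4-1, with Pou5f1 at 146.8, had the lowest Csf1r of all EB. The part of remaining undifferentiated cells in the members' signal was not tested.

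**Figure D5:**
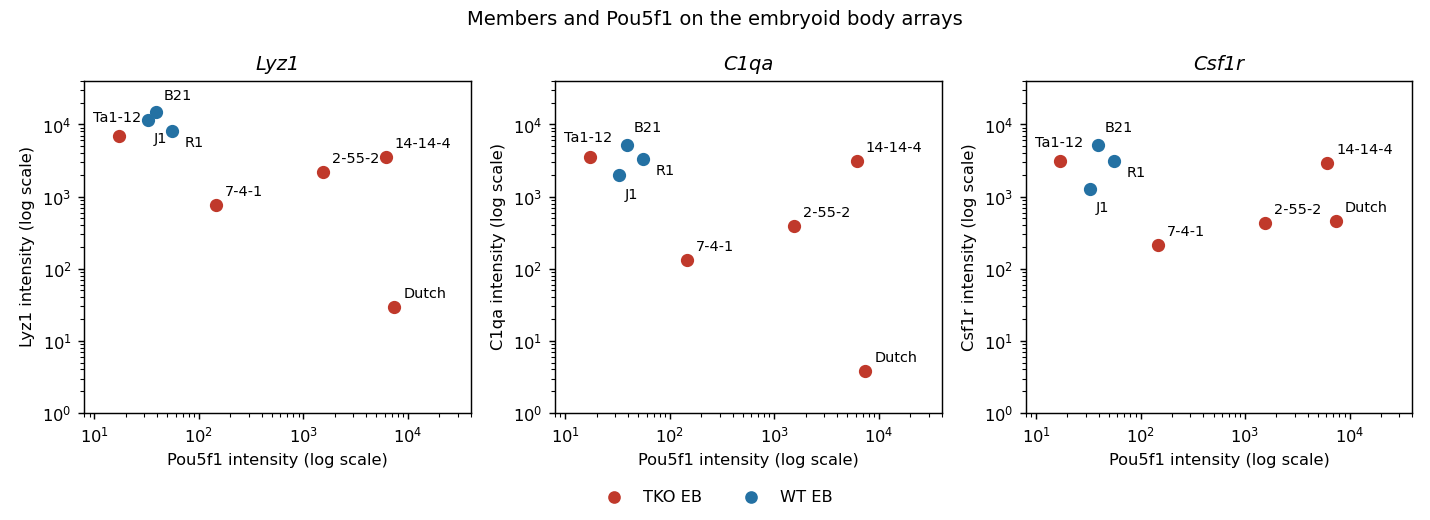
Intensity of Lyz1, C1qa and Csf1r (log axes) against that of Pou5f1 on the 8 EB arrays, with TKO EB in red and WT EB in blue and each point named by its line. Dutch and 14-14-4 lie close together on the Pou5f1 axis, at 7410.3 and 6132.8, and far apart in Lyz1 (29.2 and 3573.2) and C1qa (3.8 and 3140.5). In Nanog, not drawn, they were at 8416.6 and 4332.8.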

How the data were processed

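RNA of whole cultures was measured on Affymetrix arrays with biotin label, per the labels. The deposited table holds linear intensity values of 45101 probe sets on 14 arrays, from 0.596 to 25702, which the authors had summarised from probes. Their background correction and scaling are not given in the sources used here. Of the probe sets 34958 had 1 symbol in the platform annotation, 932 several and 9211 none. The probe set with the highest mean stood for a gene. Values were floored at 32 and log2 was taken. Genes above the 40th percentile of the array on at least 3 arrays were tested (14360). The model, limma 3.58.1 (R 4.3.3) with eBayes moderation and a trend in the variance, gave each group a mean and used the 14 arrays together, with two-sided tests, with Benjamini-Hochberg adjustment over all genes and a threshold of 0.05. Every adjusted p is from limma. The number of arrays limits the precision. The fit was tested on simulated data.

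The members and lists were chosen with earlier results of these data known. Named list genes were up to 5 per list with the smallest adjusted p in TKO EB versus TKO ESC, with fixed markers added. Csf1, Il34, Rb1, Rbl1 and Rbl2 fall outside this rule and were named after their values were seen. The line names pair ESC and EB arrays of the same cell line. Deviations from the group means correlated within lines at 0.069 (7-4-1), 0.197 (Dutch), 0.092 (Ta1-12), -0.046 (B21), -0.077 (J1) and -0.037 (R1). Alternatives covered normalization, floor, filter, choice of probe set, trend, the arrays in the fit, the line block and leaving out each array. Promoter windows are from RefSeq GRCm38.p6, searched with Python 3.11.15 and aligned with Biopython 1.88.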

Additional observations from a re-analysis of the deposited data

How the results depend on the processing

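Of 10 members, 9 were called in TKO EB versus TKO ESC, and no alternative that was run turned the direction of a member in that comparison. The count was 5 with only the arrays of the groups compared, 1 with the line as a replicate block on 12 paired arrays, 2 on the same 12 arrays without the block, a fit added after seeing the data, and 2 without the line Ta1-12. It was 6 with a floor of 64 (Fcer1g, Ptprc and C1qa lost) and 7 with no filter (Ptprc and C1qa lost). Leaving out 1 array at a time gave 5 (without TKO ESC 7-4-1) to 10. For macrophage and monocyte genes called higher (13), counts also added then, these counts were 8, 4, 7 and 5, with 7 to 18 on leaving out 1 array, and for lysosomal genes (15) the block gave 9. In TKO EB versus WT EB the count of 0 members became 1 without the line Ta1-12 and 0 to 2 on leaving out 1 array, where Lyz2 and Ptprc passed without TKO EB Ta1-12. Genes called there were 0, but 8 with a floor of 64, 1084 without the line, 1373 without TKO EB Ta1-12 and 1 without WT EB R1. Genes called in TKO EB versus TKO ESC were 5166 of 14360, against 3236 with the block and 3133 without the line. With all probe sets tested the unit was the probe set and not the gene, and 10897 of 31122 passed. For the interaction (0) they were 1 with no filter, 5 without the line and 26 without TKO EB Ta1-12, and for TKO ESC versus WT ESC (0) they were 1 with a floor of 64, 2 with no filter and up to 5 on leaving out 1 array. Values near 0 changed sign. Cd68 in TKO EB versus WT EB was 0.07 after quantile normalization and -0.39 to 0.23 on leaving out 1 array. Its interaction was -0.33 on the 12 arrays with or without the block, -0.07 without the line and -0.24 to 0.39 on leaving out 1 array. In TKO ESC versus WT ESC, Cd68 was 0.05 without the line and -0.33 to 0.05 on leaving out 1 array, Csf1r was -0.11 with only the arrays compared, and Tyrobp was -0.24 to 0.20 on leaving out 1 array. The cause was not tested. Signal over background limits the members in ESC, where 7 of 10 lie at the floor.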

Other observations

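Some blood and immune genes did not follow the order of the members over the EB arrays. Tmem119, a marker of microglia that mesenchymal cells also express, was at 1176.4, 666.5, 1235.0, 99.9 and 393.7 in TKO EB of 2-55-2, 14-14-4, 7-4-1, Dutch and Ta1-12, and at 718.2, 1311.7 and 363.1 in WT EB of B21, J1 and R1. It was thus highest in J1 and 7-4-1, where C1qa was low for its group. In Dutch, however, both Tmem119 and C1qa (3.8) were the lowest of all EB. The embryonic globin gene Hbb-bh1 was at 138.7, 410.3, 94.4, 23.7 and 5.9 in the same TKO EB and at 8.8, 281.7 and 110.8 in the same WT EB. The arrays with the most Lyz1 of their group, TKO EB Ta1-12 and WT EB B21, lay under the floor for this globin. TKO EB Dutch, with the least Lyz1 (29.2), lay under the floor for it as well. Values under the floor are not ranked, and in TKO EB the globin did not run opposite to Lyz1.

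Ltf and Lcn2, genes of granule and mucosal proteins, reached 1774.5 and 1566.9 in TKO EB Ta1-12 and 633.5 and 2346.8 in WT EB B21. In the other TKO EB they were at 19.2 to 36.8 and 87.5 to 137.7. In WT EB of J1 and R1, Ltf was at 166.5 and 127.3 and Lcn2 at 274.4 and 150.4. ESC arrays had 12.0 to 22.2 for Ltf and 41.7 to 97.1 for Lcn2, so every WT EB lay above ESC in both genes. These differences between arrays were not tested.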
